A study of Mus musculus with 15 samples.

Results

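Nuclear factor kappa B (NF-kB) is a family of transcription factors that waits in the cytoplasm, bound by inhibitor proteins, until signals such as interleukin 1 or tumour necrosis factor have the inhibitors destroyed. Once in the nucleus it switches on cytokines and chemokines and also genes that shut the pathway off again, so transcripts of the feedback genes are often read as a trace of recent NF-kB activity. In the cochlea the pathway has been studied for its part in inflammation after loud sound. Described here are 10 genes of this circuit: the inhibitors and feedback genes Nfkbia, Tnfaip3, Nfkbiz and Bcl3, the factor subunits Nfkb1, Nfkb2 and Relb, the survival gene Birc3, and the cytokines Il1b and Tnf. All probe sets that the platform annotation pairs with these symbols were taken, which gave 18 probe sets for 9 of the 10 genes, out of 18193 genes on the array with a probe set of their own. Nfkb1 was not analysed here.

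RNA came from the auditory nerve of CBA/CaJ mice aged 5 to 12 weeks, on 15 arrays in 5 groups of 3. One group was never exposed and served as control. The other 4 received 2 h of noise filling the octave between 8 and 16 kHz, at a level of 106 dB SPL, and their tissue was collected right away (the immediate group), or after 1, 7 or 14 days. Each array held the tissue of both ears of 1 animal, dissected down to the core of the cochlea, where the nerve lies with some surrounding bone and vessels. Sex was uneven: all 3 controls were female and all 3 animals at 1 day were male, while the immediate, 7-day and 14-day groups each held 2 females and 1 male.

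Values are log2 intensities of a probe set, so that levels of different genes are not comparable, and differences are log2 fold changes with their standard errors. A difference was called where limma's moderated test, adjusted by Benjamini-Hochberg over 13644 genes, gave an adjusted p under 0.05. Markers of the labelled tissue were bright in controls, with Nefl at 13.43 ± 0.05 and Mbp at 13.92 ± 0.09 (SD, n = 3). In bulk tissue, fewer cells of a type and less RNA per cell cannot be told apart. Transcripts that should be absent give a gauge of background: 3 Y-linked genes lay between 2.56 and 4.33 in females, and Xist between 5.13 and 6.48 in males. The levels of Bcl3, Il1b, Tnf and Relb fell within that Xist range or under it on all 15 arrays, so sizes of their changes are uncertain, and the dimmer probe sets of Nfkbiz, Tnfaip3, Nfkb2 and Birc3 lay there too, but for 1 array of Nfkbiz. The array of 7-day replicate 2 stood apart, with the narrowest spread of values (SD over probe sets 2.21, against 2.26 to 2.31 on the other 14 arrays) and the highest 25th percentile (4.28, against 4.10 to 4.20). On it Nfkbiz and Birc3 had their lowest level of the 15 arrays, and the dim Il1b and Tnf their highest.

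Promoters of 3 feedback genes are printed because they carry matches to the kappa B consensus, the DNA sequence that NF-kB binds. RefSeq promoters (GRCm38.p6, 250 bases before to 50 after the gene's start) were given for 7 of the 10 genes, Nfkbia, Tnfaip3, Nfkb2, Bcl3, Birc3, Il1b and Tnf. Capitals mark kappa B matches on either strand.
Bcl3, chr7:19822706-19823005, minus strand: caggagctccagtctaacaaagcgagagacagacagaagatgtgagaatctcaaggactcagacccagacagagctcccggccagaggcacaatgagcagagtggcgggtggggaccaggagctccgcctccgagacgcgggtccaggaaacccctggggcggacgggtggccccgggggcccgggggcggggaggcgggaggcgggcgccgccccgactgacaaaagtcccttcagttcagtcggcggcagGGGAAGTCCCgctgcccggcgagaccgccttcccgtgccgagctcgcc
Nfkbia, chr12:55492598-55492897, minus strand: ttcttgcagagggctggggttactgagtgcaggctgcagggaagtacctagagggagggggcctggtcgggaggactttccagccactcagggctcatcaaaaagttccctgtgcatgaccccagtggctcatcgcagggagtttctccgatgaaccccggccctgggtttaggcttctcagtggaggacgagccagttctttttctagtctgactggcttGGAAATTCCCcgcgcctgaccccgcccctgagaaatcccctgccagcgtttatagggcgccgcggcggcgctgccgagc
Tnfaip3, chr10:19015361-19015660, minus strand: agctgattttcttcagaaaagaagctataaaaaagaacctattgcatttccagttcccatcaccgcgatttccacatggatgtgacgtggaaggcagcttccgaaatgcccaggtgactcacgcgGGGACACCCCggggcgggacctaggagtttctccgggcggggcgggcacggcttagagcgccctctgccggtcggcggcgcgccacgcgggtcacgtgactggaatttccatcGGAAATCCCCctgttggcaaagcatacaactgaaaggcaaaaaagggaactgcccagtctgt
The other Tnfaip3 promoter window held no match. The match lies at bases 3 to 12 after the start in Bcl3, at -29 to -20 in Nfkbia, and at -125 to -116 and -12 to -3 in Tnfaip3. At least 1 match was found in promoters of 4 of the 7 genes (these 3 and Nfkb2). By window, 6 of the 10 windows of the 7 genes held a match, beside 4.51% of all 32851 promoter windows of the same length. Some genes have several windows, and windows of Nfkb2 overlap, so shares of windows are not shares of genes. The AP-1 motif TGANTCA was found for Tnfaip3 and Nfkb2, and in 7.81% of all windows. The cyclic AMP response element, searched in its palindromic form, was found for none of the 7 genes, and in 1.79% of all windows. A match describes the letters of the window only.

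Against unexposed controls, none of the 9 genes passed the test at any time. Immediately after noise 0 of 9 were called in limma, beside 0.931% of all genes; at an unadjusted p under 0.05 there were 4, all higher (Nfkbiz, Tnfaip3, Relb and Bcl3), beside 7.26% of all genes higher at that level. At 1 day 0 of 9 were called, beside 3.18% of all genes, and 3 were higher at an unadjusted p under 0.05 (Nfkbiz, Relb and Bcl3), beside 7.70%. At 7 days 0 of 9 were called, beside 0.022%, and Relb alone was higher at an unadjusted p under 0.05, beside 5.97%. At 14 days 0 of 9 were called, beside 0% of all genes, and 0 reached an unadjusted p under 0.05, beside 7.84% of all genes in either direction and 5.01% higher. The median change of the 9 genes was 0.11 immediately, 0.01 at 1 day, 0.06 at 7 days and -0.01 at 14 days, beside -0.02, -0.01, 0.01 and 0.02 over all genes. These 4 comparisons share the 3 control arrays.

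**Figure D1:**
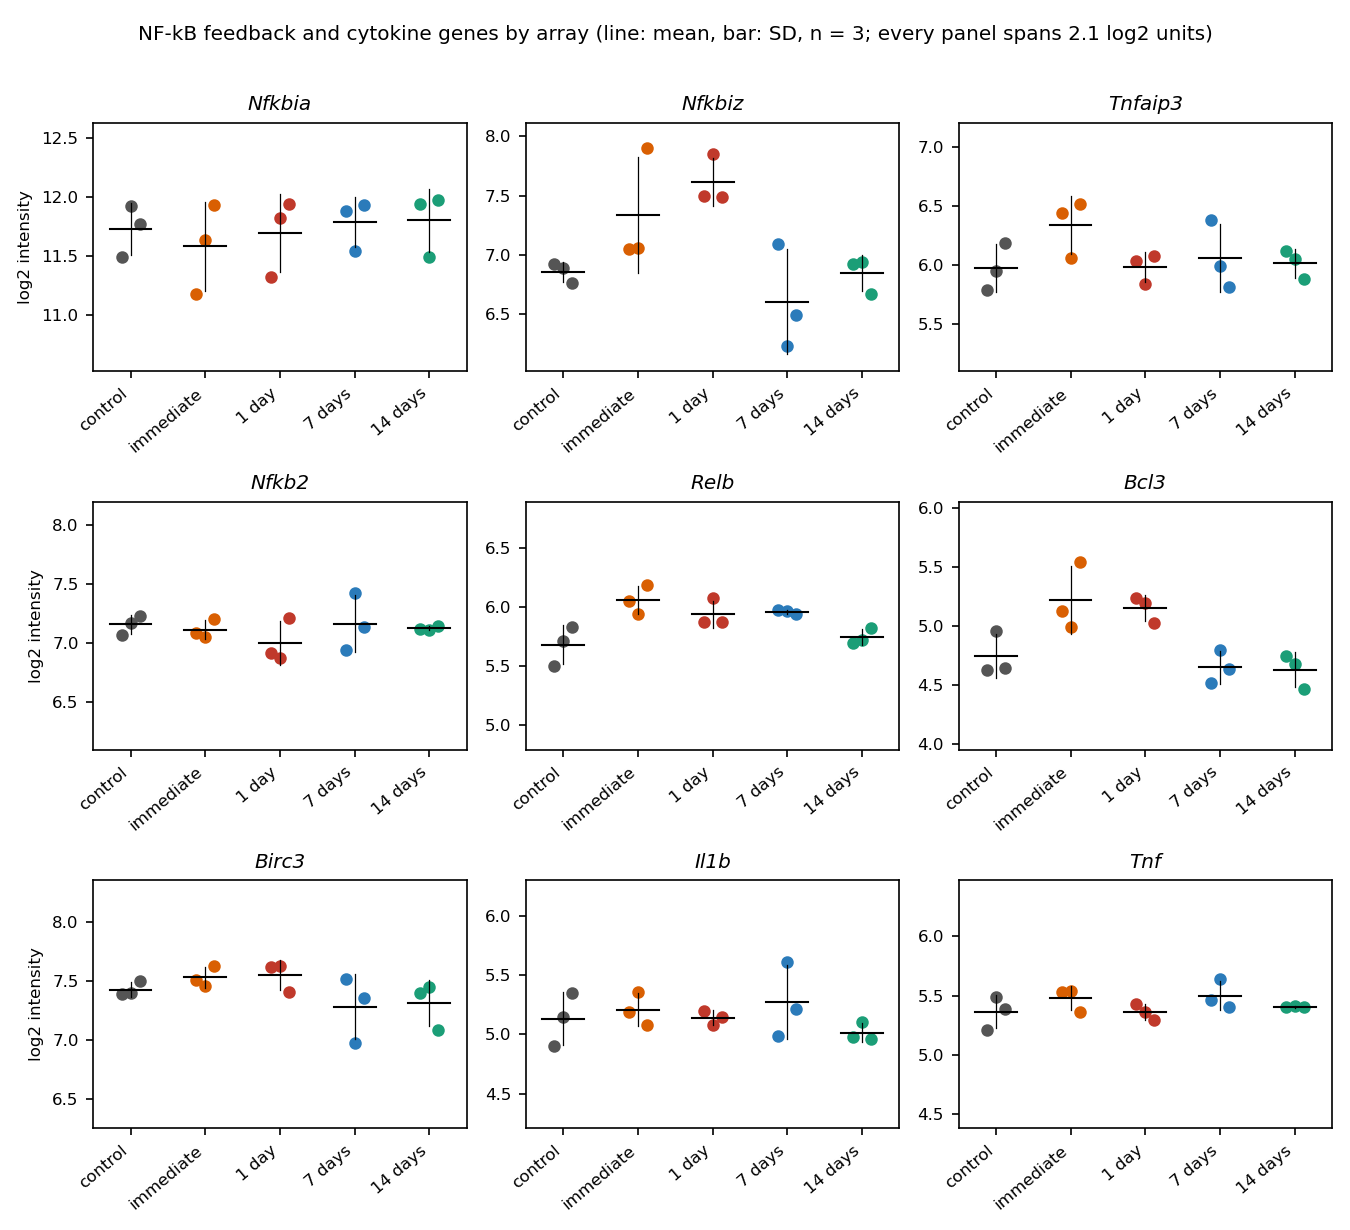
Log2 intensity (vertical axis) of the 9 genes on each array, by group; points are arrays, lines are means and bars are SD of 3 arrays. Nfkbiz and Bcl3 stand higher immediately and at 1 day, while Nfkbia, Nfkb2, Il1b and Tnf show groups that overlap throughout.

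**Figure D2:**
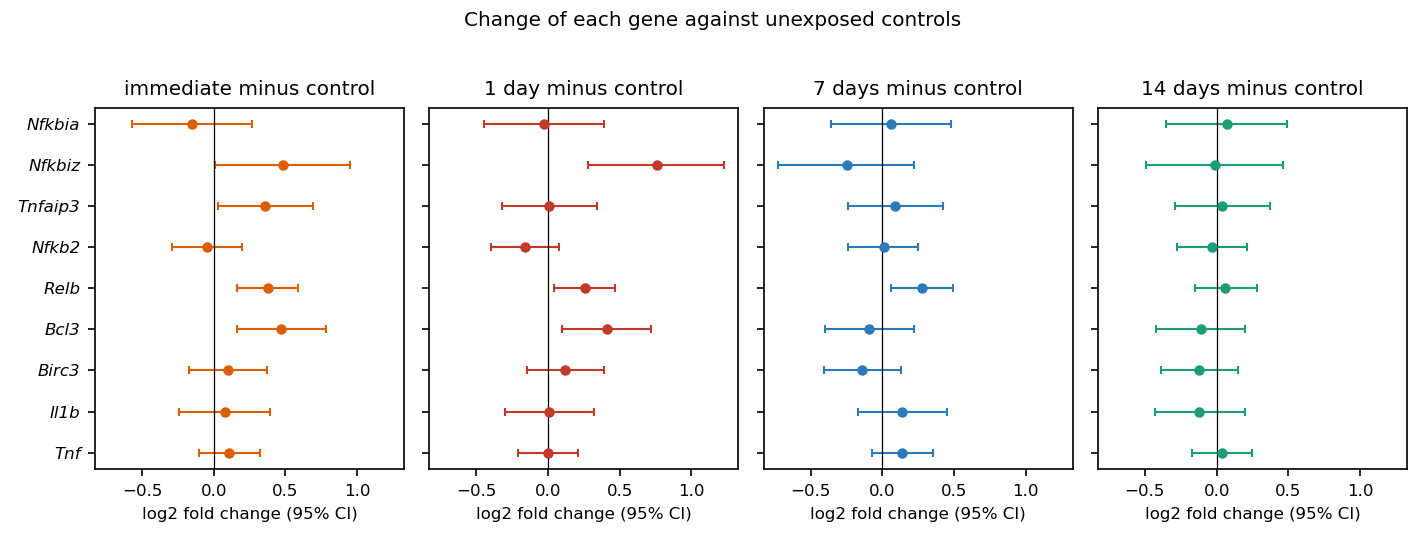
Log2 fold change against control (horizontal axis) of the 9 genes at the 4 times after noise; bars are 95% confidence intervals of the limma fit, not adjusted for the number of genes. Intervals of Nfkbiz, Relb and Bcl3 lie above 0 immediately and at 1 day, as do those of Tnfaip3 immediately and Relb at 7 days, and none of these differences passed after adjustment.

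Between consecutive times, the main fit called Nfkbiz and Bcl3 lower at 7 days after noise relative to 1 day. Neither gene was called with sex as a term, and Bcl3 was also not called with no filter on dim genes, among other settings. Both encode atypical inhibitors that act in the nucleus: IkB-zeta, the product of Nfkbiz, helps NF-kB switch on a later set of inflammatory genes, and Bcl-3 partners p50 and p52 subunits that lack an activating domain of their own. In this comparison 2 of 9 genes were called, both lower, beside 9.35% of all genes called in either direction and 4.22% called lower. Bcl3 passed the filter on dim genes only through the groups in which it was high, so its call adds nothing to this count as a sign of change. For 1 day against immediate 0 of 9 were called, beside 8.39% of all genes, and Tnfaip3 alone had an unadjusted p under 0.05, lower at 1 day, beside 12.3% of all genes lower. For 14 days against 7 days 0 of 9 were called, beside 0% of all genes, and 0 reached an unadjusted p under 0.05, beside 2.1% of all genes. Among the 5 groups as a whole, limma's F test called the same 2 genes, Bcl3 (adjusted p = 0.0323) and Nfkbiz (adjusted p = 0.0418), beside 6.75% of all genes.

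Nfkbiz was measured at 6.92, 6.89 and 6.76 in controls, 7.05, 7.06 and 7.90 immediately, 7.50, 7.85 and 7.49 at 1 day, 7.09, 6.23 and 6.49 at 7 days, and 6.92, 6.94 and 6.67 at 14 days. All 6 arrays of the immediate and 1-day groups lay above all 3 controls, a split read from these values whose share among all genes was not counted. The lowest of the 6 was at 7.05 and the highest control at 6.92. The highest value of the 15 was the male array of the immediate group. At 1 day Nfkbiz averaged 7.61 ± 0.21, against 6.86 ± 0.09 in controls (SD, n = 3 each), a difference of 0.76 ± 0.22 that did not pass (adjusted p = 0.0774). It fell to 6.60 ± 0.44 at 7 days, against 7.61 ± 0.21 at 1 day (SD, n = 3 each), by 1.01 ± 0.22 (fold 0.497, adjusted p = 0.0131), and the 2 groups did not overlap, as was so for Bcl3 and for 9.77% of all genes in this direction. The immediate difference from control, 0.48 ± 0.22 (adjusted p = 0.315), was 0.20 without immediate replicate 3. Within sexes, the only 7-day male stood at 7.09, below the 3 males at 1 day (7.49 to 7.85), and the 1-day group has no female. With sex as a term the fall was 0.63 in size and not called (adjusted p = 0.0579), and the 1-day difference from control was 0.19 (adjusted p = 0.702). The fall was also not called without 7-day replicate 2 (-0.82, adjusted p = 0.053) or 1-day replicate 2 (-0.89, adjusted p = 0.0657), nor when only the groups compared were fitted (adjusted p = 0.0574).

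The other probe sets of Nfkbiz were not called. In the same comparison of 7 days with 1 day, probe set 1417483_at gave the fall above, while 1448728_a_at differed by -0.09 ± 0.17 (adjusted p = 0.794) and 1457404_at by -0.28 ± 0.14 (adjusted p = 0.225), with adjustment over 26207 probe sets. Probe set 1448728_a_at was highest at 6.92 on immediate replicate 3, and elsewhere lay between 5.67 and 6.32. Probe set 1457404_at lay between 5.70 and 6.28 on all 15 arrays. Both dimmer sets were within the range of Xist in males on all arrays but immediate replicate 3 of 1448728_a_at, so the sizes of their changes are uncertain, and the difference between probe sets was not tested. Pearson's r between pairs of the 3 probe sets over the 15 arrays ran from 0.49 to 0.71, as a description. Of all 18 probe sets of the 9 genes, 2 were called in this comparison (1417483_at and the Bcl3 probe set), beside 8.5% of all probe sets. The mean of the Nfkbiz probe sets differed by -0.46 and was not called (adjusted p = 0.0712).

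**Figure D3:**
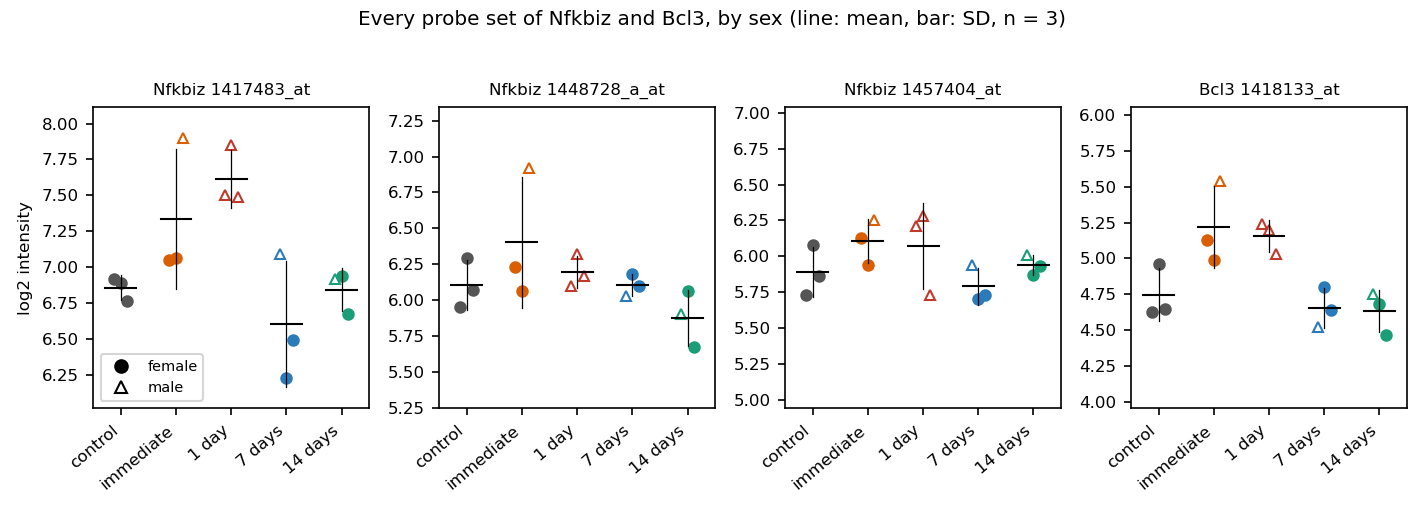
Log2 intensity (vertical axis) of the 3 Nfkbiz probe sets and the Bcl3 probe set by group; filled circles are females, open triangles males, lines means and bars SD of 3 arrays. The 1-day group is all male, the controls are all female, and the difference of 7 days from 1 day is -1.01 on probe set 1417483_at, -0.09 on 1448728_a_at and -0.28 on 1457404_at.

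Bcl3 had 4.63, 4.96 and 4.65 in controls, 5.13, 4.99 and 5.54 immediately, 5.24, 5.20 and 5.03 at 1 day, 4.52, 4.80 and 4.64 at 7 days, and 4.75, 4.68 and 4.47 at 14 days. The 6 arrays of the immediate and 1-day groups were all above the 9 others, a split read from these same values. The share of all genes with such a split was not counted. Immediately after noise Bcl3 averaged 5.22 ± 0.29, against 4.75 ± 0.19 in controls (SD, n = 3 each), a difference of 0.47 ± 0.14 (adjusted p = 0.138) that was 0.31 without immediate replicate 3, and at 1 day the difference was 0.41 ± 0.14 (adjusted p = 0.142). Bcl3 averaged 4.65 ± 0.14 at 7 days and 5.16 ± 0.11 at 1 day (SD, n = 3 each), a difference of -0.50 ± 0.14 (fold 0.705, adjusted p = 0.0413). Its mean over the 9 arrays of the control, 7-day and 14-day groups was 4.68, under the filter level of 4.70, so it was tested only through the groups in which it was high. With no filter the difference was not called (adjusted p = 0.0505). Nor was it called with sex as a term (-0.40, adjusted p = 0.191), with array weights (adjusted p = 0.101) or with only the groups compared (adjusted p = 0.0873). Leaving out each array in turn kept it between -0.58 and -0.44, and it was called in 6 of 15 such fits (adjusted p up to 0.130). It was not called without any single 1-day or 7-day array, nor without control replicate 3, immediate replicate 1 or 14-day replicate 2.

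Genes whose levels ran most like these 2 were found by Pearson's r over the 15 arrays, as a description. For Bcl3 they were Socs3 (r = 0.91), an inhibitor of cytokine signalling, Ackr3 (0.89), a scavenging chemokine receptor, and Ccl2 (0.89), a chemokine that draws monocytes. Socs3 averaged 6.05 in controls, 8.02 immediately, 8.05 at 1 day, 5.92 at 7 days and 5.83 at 14 days. For Nfkbiz they were Fmr1 (0.94), Ch25h (0.94), which makes 25-hydroxycholesterol, and C730049O14Rik (0.93). Among the 9 genes themselves, Nfkbiz ran most closely with Birc3 (0.79) and Bcl3 (0.76). Nfkbiz and Birc3 both had their lowest level on 7-day replicate 2, the array of narrow spread. The other Birc3 probe set had an r of -0.48 with the one used.

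Nfkbia encodes IkB-alpha, the main cytoplasmic inhibitor and a rapid target of NF-kB, and its level did not separate the groups. Probe set 1420088_at measured 11.49, 11.92 and 11.77 in controls, 11.18, 11.63 and 11.93 immediately, 11.32, 11.82 and 11.94 at 1 day, 11.88, 11.54 and 11.93 at 7 days, and 11.94, 11.49 and 11.97 at 14 days. All 5 groups overlapped. The differences from control were -0.15 immediately, -0.03 at 1 day, 0.06 at 7 days and 0.07 at 14 days, each with a standard error of 0.20. The 95% interval of the immediate difference ran from -0.57 to 0.27, and changes within that range are not excluded.

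The scatter of Nfkbia within groups was shared by its 5 probe sets. Pearson's r between pairs of them over the 15 arrays ran from 0.75 to 0.96, with a median of 0.90, as a description, and the probe sets may read overlapping stretches of the transcript. On 4 arrays all 5 probe sets lay below their own mean: immediate replicate 1 (mean deviation -0.48), 1-day replicate 1 (-0.36), 7-day replicate 2 (-0.37) and 14-day replicate 2 (-0.25). These arrays came 1 from each noise group, 3 females and 1 male in all. No control array was low on all 5 probe sets, but control replicate 1 was low on 4 of the 5 (mean deviation -0.11). Whether noise and control groups differ in this was not tested. Nfkbia on these 4 arrays lay between 11.18 and 11.54 on probe set 1420088_at. On the other 8 noise arrays it lay between 11.63 and 11.97, and control replicate 1 was at 11.49. The 4 arrays were picked by these same values, so the gap is a description. Among them is 7-day replicate 2, the array of narrow spread.

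**Figure D4:**
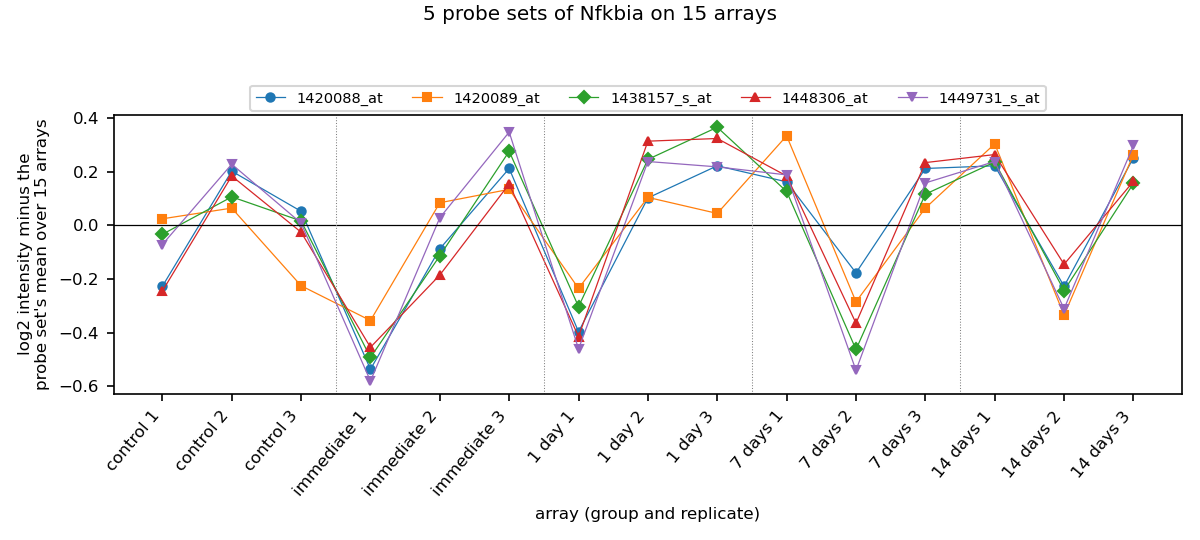
Deviation of each of the 5 Nfkbia probe sets from its own mean over 15 arrays (vertical axis, log2 units), by array. The probe sets move together from animal to animal. In each noise group 1 array is low on all 5, and control replicate 1 is low on 4.

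Tnfaip3 encodes A20, an enzyme that edits ubiquitin chains and ends signalling from the TNF receptor. Its probe set 1433699_at had 5.79, 5.95 and 6.19 in controls, 6.44, 6.06 and 6.52 immediately, 6.04, 5.84 and 6.08 at 1 day, 6.38, 5.99 and 5.82 at 7 days, and 6.12, 6.05 and 5.88 at 14 days. Immediately after noise 2 of 3 arrays lay above all controls, and the difference was 0.36 ± 0.15 (adjusted p = 0.270). At 1 day it was 0.01 ± 0.15 against control and -0.35 ± 0.15 against the immediate group (adjusted p = 0.173). This probe set lay within the range of Xist in males on all arrays but immediate replicate 3, so sizes of its changes are uncertain. The dimmer probe set 1450829_at lay between 4.38 and 5.08, its highest value on 7-day replicate 2. It differed from control by 0.11 ± 0.13 immediately, and from 1 day by 0.33 ± 0.13 at 7 days (adjusted p = 0.121 in the probe set fit). Its Pearson's r with the brighter set was 0.11.

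Relb encodes a subunit of the alternative NF-kB pathway, which is itself induced by the canonical pathway. It measured 5.50, 5.71 and 5.83 in controls, 6.05, 5.94 and 6.18 immediately, 5.87, 6.07 and 5.87 at 1 day, 5.97, 5.96 and 5.94 at 7 days, and 5.69, 5.72 and 5.82 at 14 days. All 9 arrays up to 7 days after noise lay above all 3 controls, while the 14-day arrays did not. This split was read from the same values and rests on 1 set of controls, and its share among all genes was not counted. The differences from control were 0.38 ± 0.10 immediately (adjusted p = 0.0937), 0.26 ± 0.10 at 1 day (0.187), 0.28 ± 0.10 at 7 days (0.348) and 0.06 ± 0.10 at 14 days (0.912), and none passed. Counting genes whose 3 arrays all lay above the 3 controls gave 3 of 9 immediately (Nfkbiz, Relb and Bcl3), beside 8.86% of all genes, the same 3 at 1 day, beside 10.1%, Relb alone at 7 days, beside 8.19%, and 0 at 14 days, beside 8.77%.

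Nfkb2 encodes p100, the precursor of the p52 subunit and partner of RelB. Probe set 1429128_x_at averaged 7.16 ± 0.08 in controls, 7.11 ± 0.08 immediately, 7.00 ± 0.19 at 1 day, 7.16 ± 0.24 at 7 days and 7.12 ± 0.02 at 14 days (SD, n = 3 each). Its differences from control lay between -0.16 and 0.01, and no group stood apart. Probe set 1425902_a_at had 6.30, 6.07 and 6.26 immediately, all above the controls at 5.98, 5.94 and 6.01, with a difference of 0.23 ± 0.10 (adjusted p = 0.257). The brighter set differed by -0.05 ± 0.11 at this time, so its sign is uncertain, and the difference between probe sets was not tested. Over the 15 arrays the Pearson's r of the 2 probe sets was 0.15. The dimmer set also lay above all controls at 7 and 14 days, by 0.10 and 0.14, which did not pass.

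Birc3 encodes cIAP2, a ubiquitin ligase that protects cells from death through the TNF receptor. Its brighter probe set 1421392_a_at had 7.39, 7.40 and 7.50 in controls, 7.51, 7.46 and 7.63 immediately, 7.62, 7.63 and 7.41 at 1 day, 7.52, 6.98 and 7.36 at 7 days, and 7.40, 7.45 and 7.09 at 14 days. Each noise group overlapped the controls, and the differences from control ran from -0.14 to 0.12. At 7 days it differed from 1 day by -0.27 ± 0.13 (adjusted p = 0.198). The other probe set, 1425223_at, lay between 5.35 and 5.96, and its Pearson's r with the brighter set was -0.48.

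The cytokines Il1b and Tnf, ligands that start the pathway and are also its products, were dim and did not separate the groups. Il1b measured 4.90, 5.15 and 5.35 in controls, 5.19, 5.36 and 5.08 immediately, 5.20, 5.08 and 5.15 at 1 day, 4.99, 5.61 and 5.22 at 7 days, and 4.98, 5.11 and 4.96 at 14 days. Tnf measured 5.21, 5.49 and 5.39 in controls, 5.53, 5.54 and 5.36 immediately, 5.43, 5.36 and 5.29 at 1 day, 5.46, 5.64 and 5.40 at 7 days, and 5.40, 5.41 and 5.40 at 14 days. Each had its highest value on 7-day replicate 2, the array of narrow spread. Differences from control ran from -0.12 to 0.14 for Il1b and from 0.00 to 0.14 for Tnf. The 95% intervals at 1 day ran from -0.30 to 0.32 for Il1b and from -0.21 to 0.21 for Tnf. At these levels a transcript held by few cells may not be detectable.

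By group mean, Nfkbiz was highest at 1 day, followed by the immediate group, controls, 14 days and 7 days, and Bcl3 was highest immediately, followed by 1 day, controls, 7 days and 14 days. For both genes the upper 2 groups overlapped each other, and so did the lower 3. These orders come from the values themselves, so gaps between groups are a description. Bcl3 had no overlap between the upper 2 and the lower 3 groups. For Nfkbiz the 7-day male, at 7.09, reached into the immediate group, whose lowest array was at 7.05. Relb was highest immediately, followed by 7 days, 1 day, 14 days and controls, with no overlap between 1 day and 14 days.

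Other genes of the pathway, from lists chosen with earlier results of these data known, gave no call against control. Of 25 genes of the canonical pathway (receptor adaptors, kinases, ubiquitin enzymes and the subunit Rela) 20 were tested, and 0 were called at any of the 4 times. At an unadjusted p under 0.05 there were 1 higher and 2 lower immediately (beside 7.26% and 8.21% of all genes), 3 higher and 1 lower at 1 day (beside 7.7% and 10.2%), 1 higher and 2 lower at 7 days (beside 5.97% and 5.21%), and 0 at 14 days. Rela, named here like the other genes of this paragraph after values were seen, was at 8.72 ± 0.03 immediately and 8.72 ± 0.11 at 1 day, against 8.59 ± 0.04 in controls (SD, n = 3 each), and neither difference passed. Of 13 genes of the alternative pathway 8 were tested and 0 called, with 1 higher at an unadjusted p under 0.05 both immediately and at 1 day, in each case Tnfrsf12a, the receptor of the cytokine TWEAK. Of 21 genes of interleukin 1, TNF and Toll-like receptor signalling 16 were tested and 0 called, with 2 higher at an unadjusted p under 0.05 immediately (Irak1 and Tnfrsf1a), 2 at 1 day (Tlr2 and Tlr4) and 0 at the 2 later times. Among genes tested, medians against control lay between -0.10 and 0.13 in these 3 lists.

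Between consecutive times, 3 of the 44 genes tested in these lists (6.82%) were called higher at 1 day relative to immediate, beside 4.02% of all genes, and 2 (4.55%) lower at 7 days relative to 1 day, beside 4.22%. These shares are near those of all genes, and the genes are named after their values were seen. Traf6, an adaptor of the interleukin 1 receptor, rose to 7.42 ± 0.17 at 1 day, against 6.85 ± 0.04 immediately (SD, n = 3 each), by 0.57 ± 0.09 (adjusted p = 0.00341). It fell to 6.88 ± 0.11 at 7 days, by 0.54 ± 0.09 (adjusted p = 0.00447). Its controls were at 7.09, 7.23 and 7.03, above all immediate arrays and overlapping the 1-day group. Otulin, which removes linear ubiquitin chains, rose by 0.24 ± 0.07 at 1 day relative to immediate (adjusted p = 0.0463). Tlr2, a receptor for bacterial lipoproteins, rose by 0.70 ± 0.15 in the same comparison (adjusted p = 0.0136). Tlr2 lay within or under the range of Xist in males on all arrays, which leaves the size uncertain. Tnfrsf12a fell by 0.69 ± 0.17 at 7 days relative to 1 day (adjusted p = 0.0207). The 1-day group, all male, stands in each of these comparisons. Traf6, Otulin, Tlr2 and Tnfrsf12a were not followed with sex as a term or with arrays left out.

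Among genes listed as inflammatory targets, some rose early, and whether NF-kB switched them on was not tested. Of 30 such genes 23 were tested, and 2 rose immediately and 4 at 1 day, beside 0.579% and 1.52% of all genes called higher, with 0 falls, while 0 were called at 7 or 14 days. At an unadjusted p under 0.05 there were 1 lower and 0 higher at each of the 2 late times. Cebpb, a transcription factor of the acute phase, rose to 10.89 ± 0.33 immediately, against 9.41 ± 0.34 in controls (SD, n = 3 each), by 1.48 ± 0.24 (adjusted p = 0.00987). Socs3 rose by 1.97 ± 0.39 immediately (adjusted p = 0.0273) and by 2.01 ± 0.39 at 1 day (adjusted p = 0.0135). The chemokine Cxcl10 had 5.71, 7.29 and 6.65 at 1 day, against 4.18, 4.38 and 4.17 in controls, and rose by 2.31 ± 0.32 (adjusted p = 0.00186). Ccl2 had 5.44, 5.87 and 5.73 at 1 day, against 4.32, 4.72 and 4.54 in controls, and rose by 1.15 ± 0.28 (adjusted p = 0.0399). Ccl5, a chemokine of T cells and monocytes, had 5.67, 5.51 and 5.90 at 1 day, against 5.12, 5.13 and 5.24 in controls, and rose by 0.53 ± 0.12 (adjusted p = 0.0333). All 3 chemokines lay above every control at 1 day, as did 10.1% of all genes. They were named because they were called in this comparison, so the gap adds no support. Their control levels and those of Socs3 lay within or under the range of Xist in males, which leaves the sizes uncertain. Cxcl10 averaged 4.60 over the 12 arrays outside the 1-day group, and Ccl2 averaged 4.52 outside the immediate and 1-day groups, both under the filter level, so they were tested only through groups in which they were high, and the counts above include them. With no filter both were called (adjusted p = 0.00207 for Cxcl10 and 0.0455 for Ccl2). Leaving out 1 array at a time, Cxcl10 was called in 15 of 15 fits. Cebpb was not called without immediate replicate 3. Socs3 was not called immediately without any single control or without immediate replicate 1 or 3 (1.38 without the last), nor at 1 day without control replicate 3 or 1-day replicate 2. The calls of Ccl2 and Ccl5 were lost on leaving out any of the 3 controls or 1-day replicate 3, that of Ccl2 also on leaving out 1-day replicate 2, and that of Ccl5 on leaving out 1-day replicate 1. With sex as a term Socs3 was not called at either time (adjusted p = 0.0553 immediately and 0.138 at 1 day), nor Ccl2 (0.335) and Ccl5 (0.0729) at 1 day. Medians of the list were 0.07 immediately, 0.17 at 1 day, -0.09 at 7 days and -0.08 at 14 days.

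**Figure D5:**
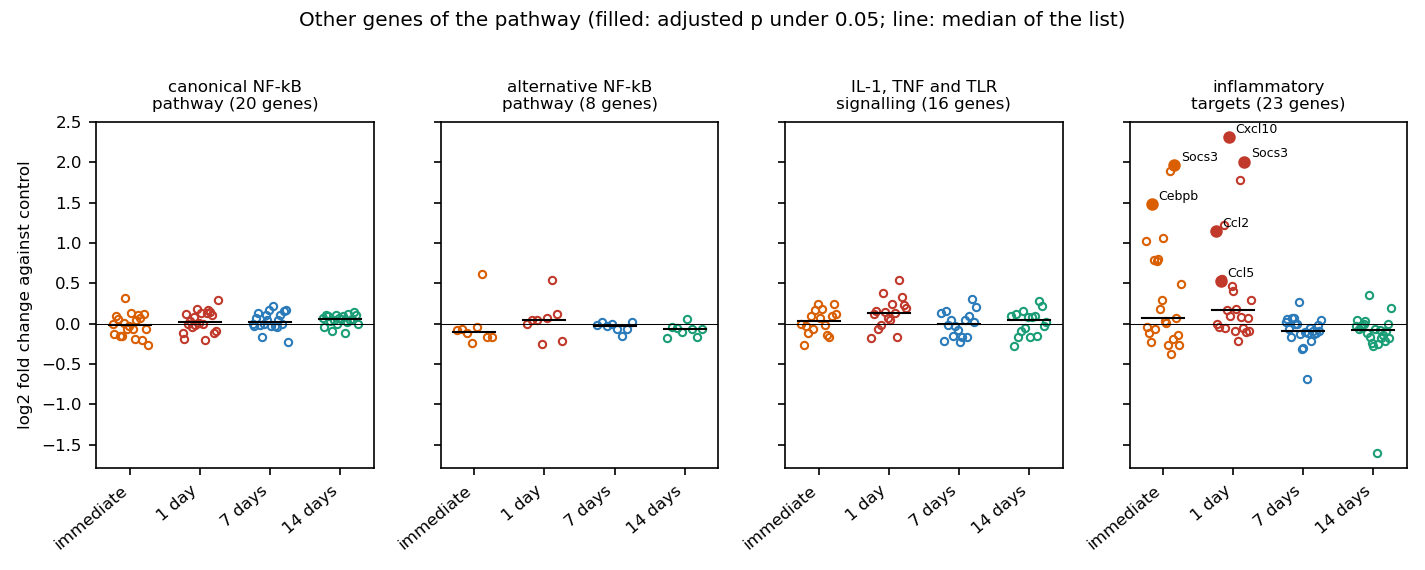
Log2 fold change against control (vertical axis) of each tested gene of 4 lists at the 4 times after noise; filled points have an adjusted p under 0.05, open points do not, and lines are list medians. The filled points are all in the list of inflammatory targets, immediately and at 1 day.

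Markers of immune cells moved alongside these genes at 1 day. The summed level of 12 macrophage genes lay between 11.87 and 12.00 at 1 day, against 11.20 to 11.43 in controls and 11.01 to 11.38 in the immediate group. Of 11 macrophage genes tested, 5 rose at 1 day, beside 1.52% of all genes called higher, among them Cd68 (by 1.95 ± 0.20), Aif1 (1.33 ± 0.18), C1qb (1.14 ± 0.16) and C1qa (0.88 ± 0.19). Control levels of Cd68 and Aif1 lay within or under the range of Xist in males, which leaves those 2 sizes uncertain. The call of C1qa was lost on leaving out any of the 3 controls, 1-day replicate 2 or 1-day replicate 3. Immediately after noise 0 of the 11 were called, and 0 reached an unadjusted p under 0.05. The summed level of 7 neutrophil genes varied widely, from 9.04 to 9.85 at 1 day, 9.02 to 11.59 immediately and 8.53 to 12.08 in controls, and 0 of 6 tested were called at either time. Of 6 lymphocyte genes 2 were tested and 0 called. The part of these cells in the values of Nfkbiz and Bcl3 was not tested.

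Markers of other cells in the dissected core also differed at 1 day. S100b of Schwann cells fell by 0.30 ± 0.08, the only one of 5 Schwann cell genes called (adjusted p = 0.0497), and was called in 4 of the 15 fits that left out 1 array. Of 8 neuronal genes Uchl1 rose by 0.53 ± 0.08 and Calb2 fell by 0.25 ± 0.05. The call of Calb2 was lost on leaving out control replicate 2, control replicate 3 or 1-day replicate 2. Of 4 bone genes Ibsp fell by 1.72 ± 0.43 and Dmp1 by 0.81 ± 0.19, and beside these counts 1.66% of all genes were called lower. Ibsp had 8.36, 8.25 and 10.04 in controls, and without control replicate 3 it differed by -1.14 and was not called (adjusted p = 0.155). Ibsp was called in 8 and Dmp1 in 10 of the 15 fits that left out 1 array, and neither without control replicate 3 or any single 1-day array. With sex as a term none of these 5 was called (adjusted p from 0.0661 to 0.213), and neither were C1qa (0.149) and C1qb (0.0637). Of 6 endothelial genes 0 were called. The part of tissue make-up in the results above was not tested.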

How the data were processed

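Expression was measured on Affymetrix arrays hybridised with RNA (50 ng) from 15 animals. The deposited table holds the authors' log2 intensities, 1 per probe set and array, with values from 2.06 to 14.63 and array medians from 5.87 to 5.92. Affymetrix Expression Console, RMA and MAS5 are named per the submitters' processing notes; the notes do not say which of these gave the values, and no further normalization was applied.

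Of 45101 probe sets, 34945 were paired with 1 gene, 932 with several, 9160 with none, and 64 were controls. Each gene was read from its 1-gene probe set of highest mean, and the 25% of genes with the lowest mean (at or under 4.70) were left out, so that probe sets of 1 gene may disagree and dim genes were not tested. All 15 arrays entered 1 fit in limma 3.58.1 (R 4.3.3; lmFit, and eBayes with a trend) with 7 contrasts, two-sided, with Benjamini-Hochberg adjustment within each. A separate fit took every probe set. The test was tried on simulated data with known changes. Arrays differ as animals do, so p-values measure the spread between animals, and the number of arrays limits the precision.

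The members and lists were chosen with earlier results of these data known. Named were all members, for each list and each comparison with control up to 4 called genes of largest change, and the 3 genes most correlated with each member called by the F test; others are said to be chosen after their values were seen. Alternatives were quantile normalization, other filters, probe sets averaged or taken singly, no trend, robust fitting, array weights, sex as a term, a replicate block, females only, only the groups compared, and each array left out.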

Additional observations from a re-analysis of the deposited data

Results flagged for a closer look

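Of 69 differences between consecutive times tested for 23 named genes, 21 had an adjusted p under 0.05 in limma, so that the change from control differed between those times; values are log2 fold changes. Of all genes, 8.39% were called for 1 day relative to immediate, 9.35% for 7 days relative to 1 day and 0% for 14 days relative to 7 days. Of the 23 genes, 14 were named because they were called against control immediately or at 1 day, on arrays that these differences use too, so the count of 21 is a description. For 1 day relative to immediate, the macrophage genes were higher: Cd68 by 1.83, Aif1 by 1.25, C1qb by 1.27 and C1qa by 0.95. The chemokines Cxcl10 (1.50) and Ccl5 (0.76) and the neuronal Uchl1 (0.32) were also higher. Cebpb (-0.91), Calb2 (-0.20) and Dmp1 (-0.86) were lower.

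For 7 days relative to 1 day, Nfkbiz (-1.01) and Bcl3 (-0.50) were lower, as were Socs3 (-2.14), Cxcl10 (-2.04), Ccl2 (-1.13) and Ccl5 (-0.69). The macrophage genes Cd68 (-1.75), Aif1 (-1.08), C1qb (-1.16) and C1qa (-0.89) were lower in the same comparison, and Calb2 (0.29) was higher. The 1-day group, all male, stands in each of these comparisons, and Bcl3, Cxcl10 and Ccl2 passed the filter on dim genes only through groups in which they were high.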

How the results depend on the processing

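Among comparisons of the 9 genes, the 2 called values kept their sign in every fit that gave them. Of the 12 alternatives, 11 gave a value for Nfkbiz and 10 for Bcl3, and all 15 fits that left out 1 array gave both. Of 61 values not called, up to 12 changed sign in a fit (sex as a term), and 11 did without control replicate 1. The 2 genes called lower at 7 days relative to 1 day became 1 with no filter, with the lowest 50% left out (4 of the 9 genes then tested), with the mean over probe sets, with array weights and with the replicate block, and 0 with sex as a term or only the groups compared; leaving out 1 array gave 0 to 2. The 2 genes called by the F test became 1 with the lowest 50% left out, the mean over probe sets, no trend, robust fitting or the replicate block, and 0 with sex as a term; leaving out 1 array gave 0 to 2. Against control, array weights gave 2 calls immediately (Relb 0.36, adjusted p = 0.0387; Bcl3 0.52, adjusted p = 0.0438) and 1 at 1 day (Nfkbiz 0.80, adjusted p = 0.0276). Fitting only the groups compared also gave 1 at 1 day (Nfkbiz), and leaving out 1 array gave 0 to 1 at that time, the call being Nfkbiz without immediate replicate 3 (adjusted p = 0.0349) or 7-day replicate 1 (0.0399). Of 18 probe sets, 2 were called by the probe set fit, 1 with no filter or the replicate block and 0 with sex as a term. Calls over all genes for 7 days relative to 1 day numbered 1276, with 449 under the sex term, 710 under array weights, 200 with only the groups compared, 2228 over every probe set, and 427 to 1327 with 1 array left out. The replicate block, under which the Bcl3 call was lost (adjusted p = 0.0531), was not taken as a pairing, since the labels give none and correlations of deviations in 30 same-numbered pairs ran from -0.33 to 0.30 (median 0.06, 11 over 0.1), against a median of -0.03 and 14 over 0.1 in 60 other pairs; 7 of 15 arrays correlated best with their own number. Females only gave no value at 1 day. Of 385 values of 15 differences of 14 other named genes under the alternatives, 81 were no longer called and 0 changed sign. The cause of these losses was not tested.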
